A study of Drosophila melanogaster with 23 samples.

Results

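Transcript levels of 7 genes of the unfolded protein response of the endoplasmic reticulum were followed in whole bodies of virgin w1118 flies of Drosophila melanogaster. The genes were taken by their symbols from the 11152 features of the count table, and all 7 were found and passed the filter on low values. They are the stress sensors Ire1 and PEK, the transcription factors Xbp1 and crc, the chaperones Hsc70-3 and Gp93, and the folding enzyme Pdi. Flies of both sexes were kept at 24 °C as young adults and then at 18, 24 or 28 °C, and each library came from a pool of flies. There were 4 libraries for each sex and temperature, except for 3 of males at 28 °C. Flies were 45 days old at 18 and 24 °C but 35 days old at 28 °C. The step from 18 to 24 °C therefore compares flies of 1 age, whereas age and temperature cannot be told apart in any comparison with 28 °C. All flies carried the same white-eyed laboratory genotype, and none were mated.

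The unfolded protein response raises the folding capacity of the endoplasmic reticulum, the compartment where secreted and membrane proteins fold, when unfolded proteins build up there. Ire1 is a membrane-bound kinase and RNase that splices the mRNA of Xbp1, and the spliced form encodes an active transcription factor. PEK (PERK) phosphorylates eIF2alpha, which lowers general translation while allowing translation of crc (ATF4). Hsc70-3 (BiP) is the Hsp70 chaperone of the lumen, Gp93 (GRP94) is its Hsp90 chaperone, and Pdi forms and rearranges disulfide bonds. Counts per gene measure neither the splicing of Xbp1 nor the activity of the kinases nor the translation of crc.

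The genes lie on 5 chromosome arms. On dm6, Ire1 (NCBI gene ID 42358) runs from 19853908 to 19861291 on chromosome 3R, PEK (40653) from 5458563 to 5464753 on 3R, and Gp93 (43354) from 27948711 to 27952151 on 3R. Xbp1 (44226) spans 21143545 to 21145750 on 2R, crc (47767) spans 21310866 to 21319527 on 2L, Hsc70-3 (32133) spans 11801696 to 11807117 on X, and Pdi (39651) spans 15137738 to 15142840 on 3L. All are protein-coding. For crc, 2515 exonic bases are shared with CG46314 on the same strand, and CG46314 had between 9.80 and 40.1 CPM in these libraries, against 463 CPM or more for crc. Pdi shares 501 exonic bases with asRNA:CR45396, Ire1 shares 496 with MICU3 and Gp93 shares 101 with CG4951, each on the opposite strand, and no strand was stated for the libraries, so reads in these stretches cannot be assigned to 1 gene with certainty.

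Libraries held between 17727137 and 23194619 expected counts, and the lowest member value in any library was 882 expected counts (PEK). The totals of the female libraries lay in a separate range from those of the male libraries, so sex and depth cannot be told apart. Levels are given as CPM, the count of a gene relative to the library size after TMM scaling, a correction that assumes that most genes do not differ. Tests were edgeR quasi-likelihood tests over 9698 features with Benjamini-Hochberg adjustment, and a change was called at an adjusted p below 0.01. TMM scales each library to 1 reference library. For 28 against 18 °C the default reference gave values at or near 1 end of the range that the 23 possible references gave. In some other comparisons it lay inside that range. For females at 28 against 24 °C the median log2 fold change of all features was 0.02, and from -0.08 to 0.07 over the references. In females at 28 against 18 °C the median log2 fold change of all features was -0.01 with the default, and from -0.25 to 0.01 over the references, and the share of calls that were positive ranged from 26.9 to 60.9%. Calls are therefore given with the number of references under which they were made. Fits that left out 1 library or kept only the groups compared chose their TMM reference anew. A change in them can therefore come from the scaling as well as from the libraries left out, and the parts were not separated. A library outside a comparison enters it only through the scaling and the spread.

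Per length of exon, Hsc70-3 had the highest mean level of the 7 genes in females at 18 and 24 °C. Pdi was highest in females at 28 °C (357 CPM per kb, against 319 for Hsc70-3) and in males at every temperature, where crc also lay above Hsc70-3. In females at 18 °C Hsc70-3 had 375 CPM per kb of exon, Pdi 215, crc 148, Xbp1 138 and Gp93 110. The sensors were far lower, at 27.6 CPM per kb for PEK and 17.0 for Ire1. In males at 28 °C the order was Pdi at 396 CPM per kb, crc at 339, Xbp1 at 299 and Hsc70-3 at 260, followed by Gp93 at 160, Ire1 at 17.5 and PEK at 12.5. In those males the 3 libraries ranged from 329 to 455 CPM per kb for Pdi and from 324 to 352 for crc, so the first and second place do not differ beyond their spread.

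**Figure D1:**
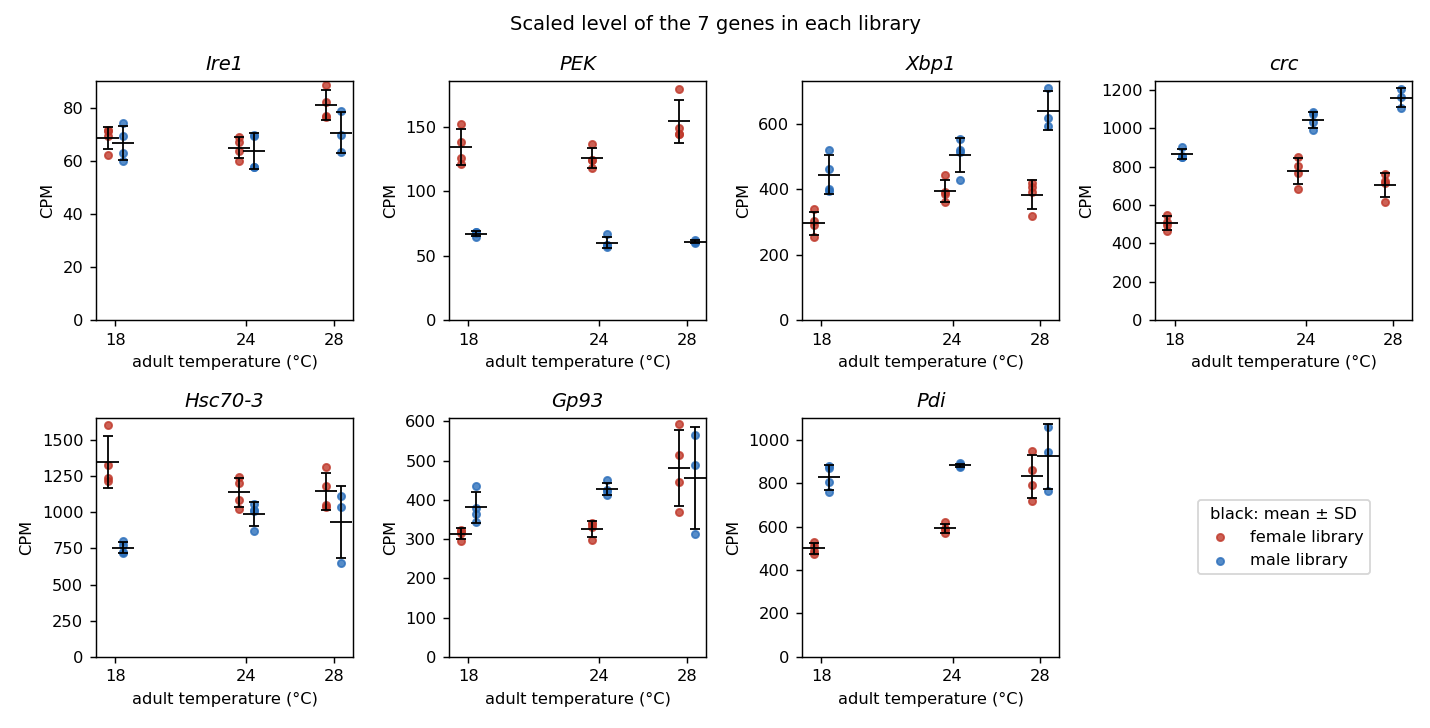
Scaled level (CPM, linear axes starting at 0) of each gene in each of the 23 libraries against adult temperature in °C, females in red and males in blue, with the mean and SD of each group in black. PEK lay between 118 and 180 CPM in the female libraries and between 56.7 and 68.4 CPM in the male libraries.

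Across the 6 groups, crc gave the clearest order. Its mean ran from females at 18 °C (505 CPM) through females at 28 °C (704), females at 24 °C (777), males at 18 °C (866), males at 24 °C (1045) and males at 28 °C (1160), and of these neighbours only females at 28 and 24 °C overlapped. For Ire1 every pair of neighbours overlapped, with group means between 63.8 and 81.3 CPM. For Hsc70-3 every pair of neighbours overlapped as well, from 754 CPM in males at 18 °C to 1346 CPM in females at 18 °C. PEK lay in a male range and a female range that did not meet.

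In females, 4 of the 7 genes were higher at 28 than at 18 °C and none was lower. Pdi, Gp93, crc and Xbp1 passed the test, while Ire1, PEK and Hsc70-3 did not. Over all 9698 features 38.0% were called in this comparison, 21.8% as higher. The libraries at 28 °C lay wholly above those at 18 °C for 4 genes, Ire1, crc, Gp93 and Pdi, and groups without overlap were found for 43.6% of all features. The median log2 fold change was 0.37 over the 7 genes and -0.01 over all features.

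The sensors did not pass between 18 and 28 °C. Ire1 had 71.3, 71.8, 62.5 and 69.4 CPM at 18 °C and 88.8, 77.2, 82.5 and 76.7 CPM at 28 °C, so that the libraries of the 2 temperatures did not overlap. Its log2 fold change was 0.24 ± 0.09 (SE, adjusted p = 0.0242), and 0.01 to 0.26 over the 23 references. Without replicate 1 at 28 °C, in a fit with its reference chosen anew, it was -0.02. In the CPM given, the other libraries at 28 °C also lay above those at 18 °C. PEK had 138, 126, 122 and 153 CPM at 18 °C and 180, 145, 149 and 145 CPM at 28 °C, with replicate 1 standing above the others. Its log2 fold change was 0.20 ± 0.08 (adjusted p = 0.0379), and -0.03 to 0.22 over the references. Without replicate 1 at 28 °C, again with the reference chosen anew, it was -0.10.

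Of the transcription factors, crc had 495, 548, 514 and 463 CPM at 18 °C and 614, 727, 713 and 760 CPM at 28 °C in females. Every library at 28 °C was above every library at 18 °C. The log2 fold change was 0.48 ± 0.07 (adjusted p = 1.86e-05, 1.39-fold), and crc was called with 23 of 23 references and without any single library. Xbp1 had 290, 339, 303 and 254 CPM at 18 °C and 318, 393, 407 and 418 CPM at 28 °C, where replicate 1 lay within the range of 18 °C. Its log2 fold change was 0.37 ± 0.11 (adjusted p = 0.00778), and it was called with only 9 of 23 references. The call on Xbp1 was lost without any 1 of 10 libraries, namely every female library at 18 and 28 °C and replicates 1 and 4 of females at 24 °C, with log2 fold changes down to 0.11. Without either library at 24 °C, which enters only through the scaling and the spread, the log2 fold change of Xbp1 was 0.17. Over the references it ranged from 0.14 to 0.39.

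Of the luminal proteins Pdi and Gp93 rose in females and Hsc70-3 was not called. Pdi had 472, 512, 490 and 530 CPM at 18 °C and 719, 862, 792 and 950 CPM at 28 °C, without overlap. It gave a log2 fold change of 0.73 ± 0.09 (adjusted p = 9.46e-07, 1.66-fold) and was called with 23 of 23 references and without any single library. Gp93 had 294, 324, 315 and 322 CPM at 18 °C and 370, 514, 446 and 594 CPM at 28 °C. The groups did not overlap, but the libraries at 28 °C were spread widely, with a coefficient of variation of 19.9% against 4.33% at 18 °C. Gp93 gave a log2 fold change of 0.62 ± 0.14 (adjusted p = 0.000931) and was called with 20 of 23 references. The call on Gp93 was lost without female replicate 1, 2 or 4 at 18 °C, replicate 1 or 4 at 24 °C or replicate 4 at 28 °C, with log2 fold changes down to 0.31. The libraries at 24 °C enter this comparison only through the scaling and the spread. Without replicate 1 or 4 at 24 °C the log2 fold change of Gp93 was 0.42 or 0.41, within the 0.38 to 0.64 over the references. Hsc70-3 had 1326, 1607, 1235 and 1216 CPM at 18 °C and 1051, 1185, 1036 and 1312 CPM at 28 °C, with overlapping ranges and a log2 fold change of -0.23 ± 0.13 (adjusted p = 0.145). It was called as lower with 7 of 23 references.

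Pools of whole flies differ in the shares of their tissues, and fewer cells of a type and less RNA per cell cannot be told apart. In females the summed level of 5 of 7 fat body markers found in the table, of which Yp1, Yp2 and Yp3 encode yolk proteins, was 5062 to 11720 CPM at 18 °C and 47184 to 54061 CPM at 28 °C (CPM of unscaled totals). The sum of 8 of 9 gut markers was 2884 to 3855 CPM at 18 °C and 7784 to 12784 CPM at 28 °C, and that of 6 of 8 germline markers of the ovary was 2002 to 2387 and 1342 to 1917 CPM. The sum of 8 of 15 eggshell markers was 213 to 1341 CPM at 18 °C and 1487 to 1912 CPM at 28 °C. Their part in the changes of the 7 genes was not tested.

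The 2 steps of temperature gave different calls in females, although the difference between the steps was not itself tested. Between 18 and 24 °C, at equal age, crc and Xbp1 rose (2 of 7, against 24.5% of all features called and 15.8% as higher), and for 3 genes, these and Pdi, the groups did not overlap (42.8% of all features). The 4 libraries of crc at 24 °C had 769, 804, 849 and 686 CPM, all above those at 18 °C, with a log2 fold change of 0.62 ± 0.07 (adjusted p = 9.02e-06), called with 23 of 23 references. Those of Xbp1 had 393, 386, 443 and 363 CPM, also all above 18 °C, with a log2 fold change of 0.42 ± 0.11 (adjusted p = 0.00561), called with 12 of 23 references. The call on Xbp1 was lost without any female library at 18 or 24 °C, or without replicate 1 or 4 of females at 28 °C, with log2 fold changes down to 0.26. Pdi had 588, 591, 620 and 569 CPM at 24 °C, above the range at 18 °C, with a log2 fold change of 0.24 ± 0.09 (adjusted p = 0.0320).

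Between 24 and 28 °C in females, Pdi, Gp93, Ire1 and PEK rose (4 of 7, against 27.6% called and 12.1% as higher), and neither crc nor Xbp1 was called. The libraries of 4 genes did not overlap, against 38.1% of all features. Pdi gave 0.49 ± 0.09 (adjusted p = 0.000178) and Gp93 0.56 ± 0.14 (adjusted p = 0.00309) on the log2 scale, both with 23 of 23 references. Gp93 had 338, 341, 331 and 297 CPM at 24 °C, below its lowest library at 28 °C. The call on Gp93 was lost in 7 of the 23 fits that left out 1 library, with log2 fold changes down to 0.34 (adjusted p up to 0.0455). Ire1 gave 0.32 ± 0.09 (adjusted p = 0.00583) and PEK 0.30 ± 0.08 (adjusted p = 0.00475), each with only 10 of 23 references. Over the references Ire1 gave 0.21 to 0.37 and PEK 0.19 to 0.34. Without female replicate 1 at 28 °C, with the reference chosen anew, Ire1 gave 0.15 and PEK 0.09. For each gene the call was lost in 9 of the 23 fits that left out 1 library. The log2 fold change of crc was -0.14 ± 0.07 (adjusted p = 0.121), and -0.25 to -0.09 over the references, with crc called as lower under 6 of 23. The gene was also called as lower in 5 of the fits that left out 1 library, namely female replicate 1, 2 or 4 at 18 °C, replicate 4 at 24 °C or replicate 4 at 28 °C, with values down to -0.28.

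**Figure D2:**
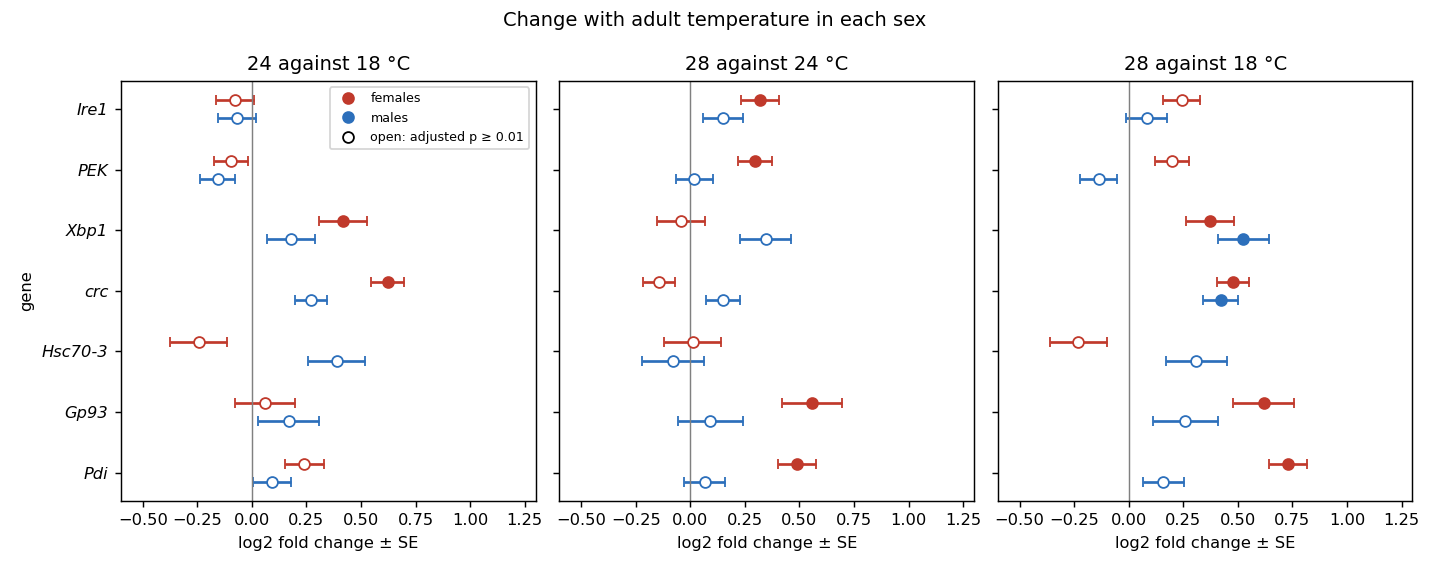
Log2 fold change and SE of the 7 genes for 24 against 18, 28 against 24 and 28 against 18 °C, females in red and males in blue, with filled points at an adjusted p below 0.01. In females crc and Xbp1 were called from 18 to 24 °C, and Ire1, PEK, Gp93 and Pdi from 24 to 28 °C. In males crc and Xbp1 were called for 28 against 18 °C.

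In a model linear in temperature, Pdi, Gp93 and crc had positive slopes in females (3 of 7, against 29.8% of all features, 19.0% positive), of 0.07, 0.06 and 0.05 log2 units per degree, called with 23, 12 and 16 of 23 references. The slope of crc was not called without 6 of the single libraries and that of Gp93 without 8, while that of Pdi was called in all 23 such fits.

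In males, 2 of the 7 genes, the transcription factors Xbp1 and crc, were higher at 28 than at 18 °C and none was lower. Over all features 10.5% were called as higher and 19.5% as lower, and the share of calls that were positive ranged from 31.9 to 57.4% over the references. For 3 genes, Xbp1, crc and PEK, the groups did not overlap, against 46.5% of all features. The median log2 fold change was 0.26 over the 7 genes and -0.08 over all features. Xbp1 had 396, 402, 521 and 462 CPM at 18 °C and 709, 620 and 595 CPM at 28 °C, without overlap, a log2 fold change of 0.53 ± 0.12 (adjusted p = 0.00123, 1.44-fold). It was called with 23 of 23 references, but the adjusted p was 0.0112 without replicate 1 at 28 °C, its highest library (log2 fold change 0.45). The male libraries of crc had 850, 853, 904 and 857 CPM at 18 °C and 1108, 1207 and 1165 CPM at 28 °C. They did not overlap, and the log2 fold change was 0.42 ± 0.08 (adjusted p = 0.000243, 1.34-fold), called with 23 of 23 references and without any single library.

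In these males the sum of the 8 gut markers was 3286 to 6755 CPM at 18 °C and 9528 to 11427 CPM at 28 °C, without overlap. Acp32CD, a product of the male accessory gland, had 351 to 675 CPM at 18 °C and 101 to 123 CPM at 28 °C. Their part in the male changes was not tested.

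The other male genes did not pass at 28 against 18 °C. Male replicate 1 at 28 °C was the lowest library of its group for all 3 luminal proteins, with 649 CPM of Hsc70-3 against 1039 and 1116, 313 CPM of Gp93 against 489 and 564, and 765 CPM of Pdi against 943 and 1060. It was also the highest for Xbp1 and Ire1. With all libraries the log2 fold change was 0.31 ± 0.14 for Hsc70-3 (adjusted p = 0.0789), 0.26 ± 0.15 for Gp93 (adjusted p = 0.168) and 0.16 ± 0.09 for Pdi (adjusted p = 0.183). Without that replicate, Hsc70-3 gave 0.51 (adjusted p = 0.00187) and Gp93 0.47 (adjusted p = 0.00710), both past the threshold, from 2 remaining libraries at 28 °C. PEK had 67.7, 64.4, 68.1 and 68.4 CPM at 18 °C and 59.6, 60.9 and 62.4 CPM at 28 °C, which did not overlap, with a log2 fold change of -0.14 ± 0.09 (adjusted p = 0.203). Ire1 gave 0.08 ± 0.09 (adjusted p = 0.501).

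With the default reference, none of the 7 genes was called in males between 18 and 24 °C, where 3.67% of all features were, and none between 24 and 28 °C, where 11.4% were. In each step 2 genes did not overlap, against 16.7 and 35.6% of all features. Of the 7 genes, crc and Hsc70-3 had the lowest p in the first step and Xbp1 in the second. The libraries of crc at 24 °C had 990, 1034, 1074 and 1083 CPM, all above those at 18 °C, and the log2 fold change of 0.27 ± 0.07 had an adjusted p of 0.0213 (0.000797 in DESeq2). Yet crc was called as higher with 13 of 23 references, with log2 fold changes of 0.25 to 0.31 over the references. It was also called in 5 of the 23 fits that left out 1 library, so the missing call on crc depends on the scaling. The libraries of Hsc70-3 had 728, 771, 800 and 718 CPM at 18 °C and 870, 1015, 1006 and 1060 CPM at 24 °C, also without overlap, with a log2 fold change of 0.39 ± 0.13 (adjusted p = 0.0544). From 24 to 28 °C Xbp1 gave 0.34 ± 0.12 (adjusted p = 0.0369), and DESeq2 called Xbp1 (adjusted p = 0.00293) and crc (adjusted p = 0.00665) there.

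The change from 18 to 28 °C was compared between the sexes by an interaction contrast. The change of Pdi was more positive in females than in males, by 0.57 ± 0.13 on the log2 scale (adjusted p = 0.00215), and it was the only 1 of the 7 genes called. Of all features 13.8% were called with a more positive change in females and 6.11% with a more negative one. Over all features this difference had a median of 0.14 with the default scaling and -0.06 with the size factors of DESeq2, so the result turns on the scaling. Pdi was called with 7 of 23 references, and its difference ranged from 0.26 to 0.59. The call on Pdi was lost in 7 of the 23 fits that left out 1 library, namely female replicate 1, 2 or 4 at 18 °C, 1 or 4 at 24 °C or 1 or 4 at 28 °C, with differences down to 0.22. Hsc70-3, which had a negative change in females and a positive one in males, differed by -0.54 ± 0.19 (adjusted p = 0.0331) and was called with 12 of 23 references, with a difference between -0.85 and -0.52. It was past the threshold in 8 fits that left out 1 library, those same 7 and the one without male replicate 1 at 28 °C, with differences down to -0.89. With the size factors of DESeq2, with library totals or with TMM on totals before the filter, Hsc70-3 was past the threshold and Pdi was not. Under all 23 references the sign of the difference stayed positive for Pdi, PEK and Gp93 and negative for Hsc70-3 and Xbp1, whereas for Ire1 and crc it changed.

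**Figure D3:**
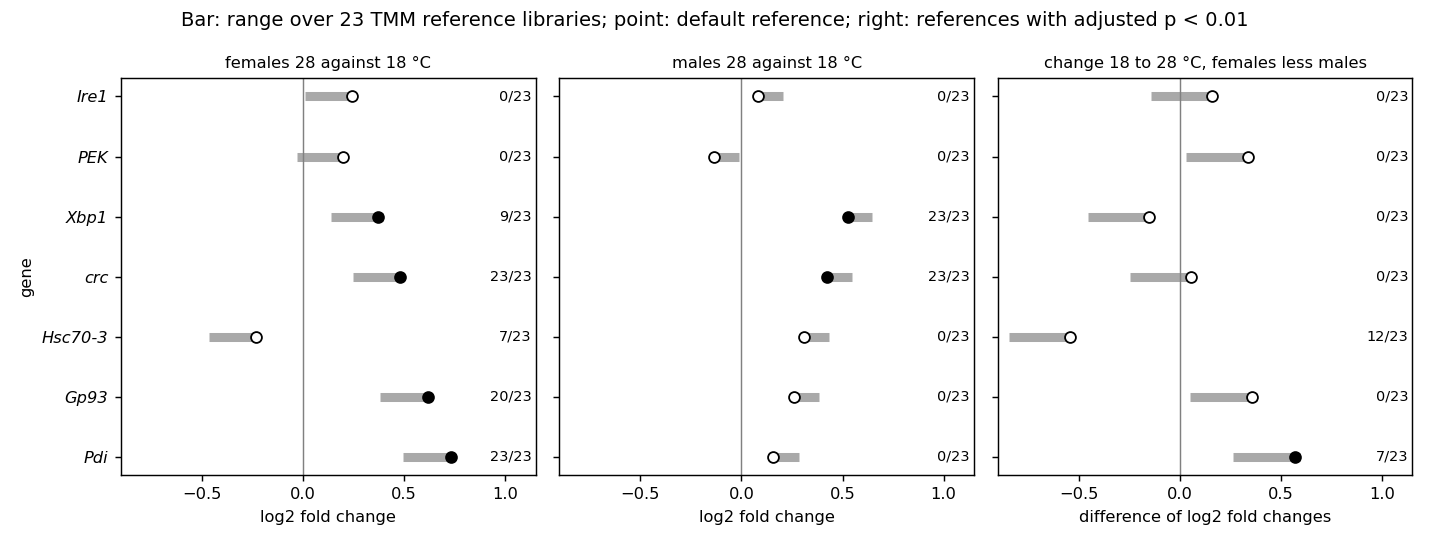
Log2 fold change of the 7 genes for 28 against 18 °C in each sex, and for the female change less the male change. The bar spans the 23 possible TMM reference libraries, the point is the default reference (filled at an adjusted p below 0.01), and the figures at the right count references with a call. The default lay at or near 1 end of the bar for each gene in all 3 panels.

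A further pair of such contrasts, added after the values had been seen, split the difference by step. From 18 to 24 °C, at equal age, 15.8% of all features and none of the 7 genes were called with the default reference. Hsc70-3 differed by -0.63 ± 0.18 (adjusted p = 0.0132, unadjusted p = 0.00253) and crc by 0.35 ± 0.10 (adjusted p = 0.0144, unadjusted p = 0.00289). From 24 to 28 °C, 4.18% of all features and none of the 7 genes were called with that reference. Pdi had the lowest adjusted p there, with a difference of 0.42 ± 0.13 (adjusted p = 0.0357). In the linear model the slope of Pdi was lower in males than in females, by -0.055 log2 units per degree (adjusted p = 0.00790, 1 of 7 genes against 13.1% of all features). It was called with 4 of 23 references and in only 5 of the 23 fits without 1 library.

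Ratios between genes within a library do not depend on the scaling. Of 5 ratios computed after the values had been seen, that of Hsc70-3 to Pdi counts separated the female temperatures fully. It was 2.29 to 3.14 in the 4 female libraries at 18 °C, 1.75 to 2.10 at 24 °C and 1.31 to 1.46 at 28 °C. In males it was 0.84 to 1.05 at 18 °C, 0.99 to 1.20 at 24 °C and 0.85 to 1.10 at 28 °C, overlapping at all temperatures and below every female library. The ratio of Hsc70-3 to Gp93 in females was likewise 3.78 to 4.97 at 18 °C, 3.28 to 3.64 at 24 °C and 2.21 to 2.84 at 28 °C. In males this ratio lay between 1.77 and 2.58 at all temperatures. The ratio of crc to PEK was 3.03 to 7.18 over the female libraries and 12.5 to 19.8 over the male ones. These ranges are descriptions and were not tested.

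Between the sexes, PEK gave the largest log2 fold change of the 7 genes at each temperature. It was lower in males at each temperature, with log2 fold changes of -1.0 ± 0.08 at 18 °C (adjusted p = 1.32e-10), -1.06 ± 0.08 at 24 °C (adjusted p = 8.50e-11) and -1.34 ± 0.09 at 28 °C (adjusted p = 1.02e-11), with 23 of 23 references at each. The male libraries at 24 °C had 56.7, 58.7, 58.7 and 66.7 CPM and the female ones 124, 124, 118 and 137 CPM. The transcription factors were higher in males. The difference for crc was 0.78 ± 0.07, 0.43 ± 0.07 and 0.72 ± 0.08 on the log2 scale at 18, 24 and 28 °C, called at each temperature with 23 of 23 references. For Xbp1 it was 0.59 ± 0.11, 0.35 ± 0.11 and 0.74 ± 0.12, called at each temperature. At 24 °C Xbp1 was called with only 3 of 23 references (adjusted p = 0.00627 by default and up to 0.223), and in 12 of the 23 fits that left out 1 library, with differences down to 0.20 without female replicate 4 at 24 °C. At 18 and 28 °C it was called with 23 of 23 references. At 18 °C its difference was 0.34 and not called when only the groups compared entered the fit, and the call was lost without female replicate 1 (0.34) or 4 (0.28) at 18 °C.

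Of the luminal proteins Pdi and Hsc70-3 were called between the sexes. Pdi was higher in males by 0.72 ± 0.09 at 18 °C (adjusted p = 1.23e-07) and 0.58 ± 0.09 at 24 °C (adjusted p = 4.13e-06), both with 23 of 23 references, and the difference was 0.15 ± 0.09 at 28 °C (adjusted p = 0.147). Its male libraries had 869, 877, 759 and 803 CPM at 18 °C and 879, 891, 876 and 883 CPM at 24 °C. Hsc70-3 was lower in males at 18 °C, with a log2 fold change of -0.84 ± 0.13 (adjusted p = 4.44e-06, 23 of 23 references) and no overlap between 718 to 800 CPM in males and 1216 to 1607 CPM in females. It was not called at 24 °C (-0.20 ± 0.13) or 28 °C (-0.29 ± 0.14). Gp93 and Ire1 were not called at any temperature, although Ire1 was called with 4 references at 18 °C and 5 at 28 °C. In all, 5 of 7 genes were called at 18 °C, 4 at 24 °C and 3 at 28 °C, against 82.5%, 74.1% and 71.7% of all features, so most features differed between the sexes in these libraries. The libraries of the sexes did not overlap for 6 of the 7 genes at 18 °C, 4 at 24 °C and 3 at 28 °C, against 82.2%, 74.4% and 78.7% of all features.

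**Figure D4:**
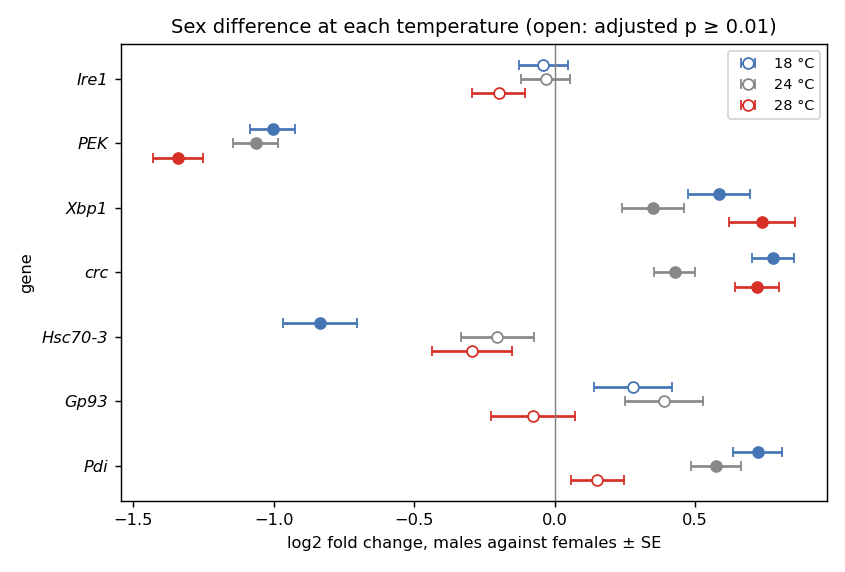
Log2 fold change of males against females with its SE for each gene at 18 °C (blue), 24 °C (grey) and 28 °C (red), with filled points at an adjusted p below 0.01. PEK was lower in males at each temperature, crc and Xbp1 were higher, and Hsc70-3 was called at 18 °C only.

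Markers of the gonads differed between the sexes, though not each of them. The sum of the 6 ovary germline markers was 1342 to 2387 CPM over the female libraries and 350 to 691 CPM over the male ones, where the group means of osk and bcd were at most 0.751 and 2.03 CPM. Within this list orb had a higher mean in males than in females at 24 °C (378 against 353 CPM) and 28 °C (414 against 206 CPM), and cup at 28 °C (229 against 213 CPM). The sum of 4 of 17 testis markers in the table was 59.3 to 127 CPM in females and 787 to 1823 CPM in males, and twe among them was higher in females. Of 15 markers of the male accessory gland only Acp32CD was in the table, at 333 to 675 CPM in males at 18 and 24 °C, 101 to 123 CPM in males at 28 °C and up to 0.534 CPM in females. The part of these tissues in the sex differences of the 7 genes was not tested.

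The genes whose profiles were most like each member were found from log2 CPM after removal of the mean of each sex, over 23 libraries that share sequencing depth and scaling with the members. Pearson's r is given as a description. For Xbp1 these were Chsy (r = 0.94), Gfat1 (0.92) and RabGGTa (0.91), and for crc l(2)efl (0.93), Drep1 (0.92) and CG14401 (0.92). For Gp93 they were P58IPK (0.93), Grp170 (0.93) and sel (0.92), for Pdi ssp7 (0.95), Cnx99A (0.94) and CG33080 (0.93), and for Hsc70-3 Sil1 (0.78) and betaCOP (0.74). For PEK they were east (0.90), BRWD3 (0.89) and mxc (0.89), and for Ire1 sktl (0.87), Gnpat (0.86) and PTP-ER (0.85). Among the 21 pairs of members, Gp93 with Pdi (0.92) and Xbp1 with crc (0.87) were the most alike, followed by Ire1 with PEK (0.65). Hsc70-3 with Pdi gave 0.06.

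Of 60 further genes of the endoplasmic reticulum found in the table (of 61 listed), 9 rose and 8 fell in females at 28 against 18 °C, and 5 rose and 11 fell in males. Of all features 21.8% rose and 38.0% were called in females, and 10.5% rose and 19.5% fell in males. Their median log2 fold change was 0.09 in females, against -0.01 over all features, and -0.06 in males, against -0.08. The genes called in both sexes were 3 of the 17 in females and of the 16 in males, all 3 in the same direction. The share of all features called in both sexes was not counted. The counts depend on the scaling: over the references 3 to 12 rose and 7 to 24 fell in females, and 5 to 14 rose and 8 to 12 fell in males.

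In females the 5 largest rises were in Edem2, which takes part in the removal of misfolded glycoproteins (36.4 ± 4.1 CPM at 18 °C and 61.0 ± 8.6 CPM at 28 °C, log2 fold change 0.74), Trp1, a Sec62-type protein of the translocon (0.61), CaBP1, a protein of the disulfide isomerase family (0.57), Atf6, the transcription factor of the third arm of the response (0.48), and P58IPK, a co-chaperone of the Hsp40 type (0.46). The adjusted p was 0.00193 or less for each. Edem2, Trp1 and Atf6 were called with 23 of 23 references, CaBP1 with 15 and P58IPK with 14. Without a single library the call on CaBP1 was lost in 6 fits and that on P58IPK in 7. The 5 largest falls were in Npl4 (328 ± 42 to 172 ± 8.1 CPM, log2 fold change -0.93) and Ufd1 (-0.40), partners of the segregase TER94, eIF2alpha, the substrate of PEK (-0.49), BI-1, a Bax inhibitor of the membrane (-0.47), and Stt3A, a catalytic subunit of oligosaccharyltransferase (-0.41), each with an adjusted p of 0.00330 or less and called with 23 of 23 references.

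In males the 5 largest rises were in Gcn2, a cytosolic kinase of eIF2alpha (0.54), GCS2beta, a subunit of glucosidase II (0.46), TER94 (0.44), Srp54k, a subunit of the signal recognition particle (0.42), and sip3, a ubiquitin ligase of the Hrd1 type (0.35), each with an adjusted p of 0.00218 or less. The 5 largest falls were in wbl, which is related to disulfide isomerases (24.8 ± 8.7 to 10.5 ± 3.5 CPM, log2 fold change -1.24), Npl4 (-1.16), the signal peptidase subunits Spase22-23 (-0.76) and Spase12 (-0.61), and TRAM, a translocon-associated protein (-0.60), each with an adjusted p of 0.00243 or less. These 10 genes were called with 23 of 23 references, but wbl, Spase12, TRAM and GCS2beta were not called when only the male groups compared entered the fit. The edgeR call was also lost for wbl without male replicate 1 at 28 °C (adjusted p = 0.0210) and for sip3 without male replicate 3 at 28 °C (adjusted p = 0.0217). By role, 7 of the 19 genes of entry into the endoplasmic reticulum fell in males and 1 rose, against 1 that fell and 1 that rose in females, beside shares of all features of 19.5% that fell and 10.5% that rose in males and 38.0% called in females. With only the male groups compared in the fit, 6 genes of the whole list of 60 were called in place of 16. Of 9 chaperones 2 rose in females and 0 in males, beside 21.8 and 10.5% of all features. The difference of the change between the sexes was called for 14 of the 60 genes, 9 with a higher change in females, 7 of them among the genes of entry. Of all features 13.8% were called with a higher change in females and 6.11% with a lower one. Over the references, between 1 and 9 genes were called with a higher change in females and between 4 and 20 with a lower one, so the balance of directions turned with the scaling.

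**Figure D5:**
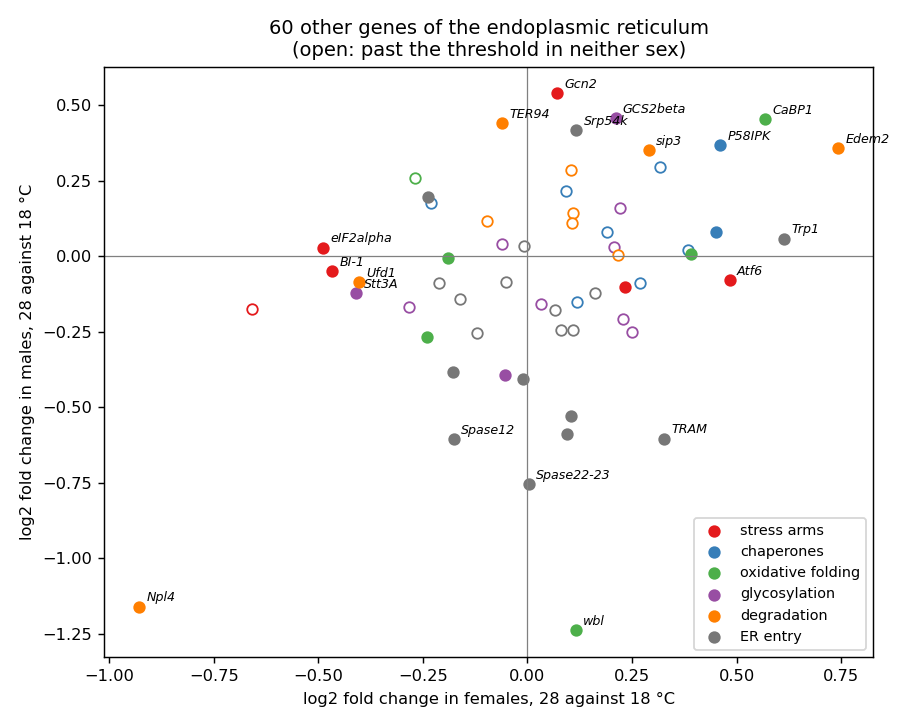
Log2 fold change at 28 against 18 °C of 60 other genes of the endoplasmic reticulum, females on the horizontal and males on the vertical axis, coloured by role, with open circles for genes past the threshold in neither sex. Npl4 was lower at 28 °C in both sexes, and the genes of entry into the compartment that fell in males had values near 0 or above in most cases in females.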

How the data were processed

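Each of the 23 libraries was made from poly-A RNA of a pool of whole flies, which the labels call biological replicates. Per the labels and the study's methods, the authors filtered reads with SOAPnuke, mapped them to the fly genome (dm6) with HISAT, aligned them with Bowtie2 and estimated expected counts per gene with RSEM, with no versions stated. The deposited values are these expected counts, without normalization, and they were rounded for the count models. Features with 0.5 CPM or more in every library were kept (9698 of 11152), and no value in the table was 0, so genes at 0 in some library may have been left out. Symbols were updated by gene ID.

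Groups came from the labels. All 23 libraries entered 1 edgeR 4.0.16 model of 6 group means (R 4.3.3, limma 3.58.1) with TMM scaling and 1 estimate of the spread, and 1 model linear in temperature. SE is the log2 fold change divided by the root of the F statistic. There were 12 comparisons of group means, 2 of them added after the values were seen, and 2 linear terms. The study's methods name a Poisson model on rounded gene counts, which ignores spread beyond counting error. A Poisson model was run as an alternative, here on rounded CPM. The others were DESeq2 1.42.0, library totals, RLE factors, other filters, a threshold of 0.05, only the groups compared, a replicate block and leaving out each library. TMM on totals before the filter and each library as TMM reference were added after the data were seen. The models were also run on counts simulated without any difference between the sexes, so that run says nothing on the dependence on the scaling.

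The members and lists were chosen with earlier results of these data known. Named genes are the 7 members, the 5 largest rises and falls among called genes of the wider list in each sex, and the 3 most similar genes for each member, of which 1 is not reported here. Gene positions come from the BDGP6 annotation, which has dm6 coordinates. No sequence was examined.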

Additional observations from a re-analysis of the deposited data

Results flagged for a closer look

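Of 35 groups of 4 libraries, 2 had a library far from the others for 1 of the 7 genes, and chance flags about 1 group in 20. PEK in females at 28 °C had 180 CPM in replicate 1 against 145 to 149 CPM in the other 3 libraries, and crc in males at 18 °C had 904 CPM in replicate 3 against 850 to 857 CPM. The groups of 3 libraries, males at 28 °C, were not examined this way.

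The sexes differed in the change of Pdi from 18 to 28 °C, by 0.57 on the log2 scale (females less males), and in its linear slope, by -0.055 log2 units per degree (males less females). Both come from a test of the difference itself in edgeR, and both were lost under other scalings.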

How the results depend on the processing

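Of the 7 genes, DESeq2 called 1 in males at 24 against 18 °C, 2 in males at 28 against 24 °C, 2 in the sex difference of the change from 18 to 24 °C and 1 in that from 24 to 28 °C. Shares over all features are given above for the main fit only, so the counts in this section describe the dependence on the processing and nothing more. Library totals called 1 in males at 24 against 18 °C and in each sex difference by step, and 1 in females at 28 against 24 °C in place of 4. RLE factors called 1 in females at 24 against 18 °C in place of 2, 2 in females at 28 against 24 °C, and 1 each in males at 28 against 24 °C and in both sex differences by step. TMM on totals before the filter called 2 in females at 28 against 24 °C, and 1 in each male step and in each sex difference by step. With only the groups compared, 2 were called in females at 28 against 24 °C, 0 in the sex difference from 18 to 28 °C and 1 in that from 18 to 24 °C, and 6 in place of 16 of the wider list in males.

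Over the TMM references, the fewest calls were 1 in females at 24 against 18 °C, 2 at 28 against 24 °C, and 0 in the sex differences from 18 to 28 °C and in slope. The most were 1 in each male step and sex difference by step, 5 between the sexes at 28 °C in place of 3, and 27 of the wider list in females in place of 17. A threshold of 0.05 gave 1 in each male step, 3, 2 and 1 in the sex differences from 18 to 28, 18 to 24 and 24 to 28 °C, 2 in the slope difference, and 31 and 25 of the wider list in females and males. The Poisson model on rounded CPM called 5 genes for the slope in females and 3 for its sex difference. In edgeR with a filter on mean CPM or no filter, 0 genes were called for that sex difference.

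Leaving out 1 library gave 2 to 4 of 7 genes in females and 2 to 3 in males at 28 against 18 °C, 1 to 2 and 0 to 1 at 24 against 18 °C, and 1 to 4 and 0 at 28 against 24 °C. It gave 1 to 2, 0 to 1 and 0 to 1 for the sex differences from 18 to 28, 18 to 24 and 24 to 28 °C, 4 to 6, 3 to 5 and 3 between the sexes at 18, 24 and 28 °C, 1 to 4 for the slope and 0 to 1 for its sex difference. The wider list gave 13 to 27 in females and 13 to 21 in males. Among the fold changes given in the text, signs turned for Ire1 (-0.024 to 0.27) and PEK (-0.10 to 0.23) in females and Ire1 in males (-0.0018 to 0.16), all at 28 against 18 °C and none of them called; other uncalled estimates, not given in the text, turned as well. Each of these fits was scaled anew with its own TMM reference, so a turn of sign can come from the scaling as well as from the library left out. The part of each was not tested.

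The replicate block changed 1 call among the values given, the sex difference in slope, where 0 genes were then called. Replicate numbers were not shown to pair the libraries: deviations from the group means correlated at -0.43 to 0.63 (median 0.09) over 55 same-numbered pairs, and 9 of 23 libraries correlated best with their own number. Of the single-gene values under alternatives that kept every library, 544 had the same direction and call, 49 lost and 28 gained a call. The lowest count behind a member was 882. Groups of 3 or 4 pools limit the precision, and p-values cover only the spread between these pools.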
